A study of Homo sapiens with 6 samples.

Results

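Replication licensing, DNA synthesis, nucleotide supply and G1/S control were described through a list of 50 human gene symbols grouped by role. Of these, 49 matched an Ensembl identifier in the count tables of the series, and UHRF1 was not analysed here. The tables held 63677 identifiers, of which 14286 had enough counts to be tested, and all 49 matched genes were among those tested. By role, 14 of the 49 belong to origin licensing, 6 to helicase activation, 6 to the sliding clamp and its loaders, 3 to single-strand binding, 8 to the polymerases and primase, 2 to lagging-strand processing, 4 to nucleotide supply, 4 to G1/S regulation and 2 to the copying of chromatin. The cells were SW480, an established line from a human colorectal adenocarcinoma, transduced with a lentiviral vector that makes its insert under doxycycline and carries puromycin resistance. One group carried POU5F1B, a retrogene copy of the gene for the pluripotency factor OCT4, and the control group carried green fluorescent protein (GFP). Both groups were grown in L-15 medium with fetal calf serum and received doxycycline at 1 µg/mL for 72 h, so the drug, the vector and the selection were shared and the insert differed. There were 3 libraries of polyadenylated RNA per group, numbered 1 to 3 in the titles. The labels do not say whether the replicates were separate cultures, so p-values measure only the spread between these libraries, which may be technical.

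As background, cells license their replication origins in G1, when the origin recognition complex (ORC), CDC6 and CDT1 load the ring-shaped MCM helicase onto DNA. In S phase CDC45 and the GINS complex switch the helicase on, primase and polymerase alpha start each strand, and the clamp PCNA, loaded by the RFC complex, holds the elongating polymerases on their template. Many of these genes are transcribed under the E2F factors as cells pass from G1 into S, so their RNA is known to be high in cycling tumour lines. In RNA from a whole culture, more cells in S phase and more RNA of a gene per cell cannot be told apart.

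The libraries held 10767947 to 12787637 counts. Levels are given as CPM, gene counts divided by the size of their library after TMM scaling, which adjusts for differences in composition. A floor of 3 counts corresponded to 0.229 to 0.278 CPM, which covers counting error only. POU5F1B stood at 0.506, 0.381 and 0.0870 CPM in GFP replicates 1, 2 and 3, and at 1182, 1056 and 121 CPM in POU5F1B replicates 1, 2 and 3, so the third library of its group carried far less of the insert. Both replicate 3 libraries stood apart from replicates 1 and 2, GFP replicate 3 the more so, and each comparison is therefore given with all 6 libraries and with replicates 1 and 2 only. Of 11 markers of colorectal epithelium, KRT8 and KRT18 lay between 2917 and 4251 CPM in every library, whereas KRT20, CDX1, LGALS4 and CEACAM5 were at or near 0. EPCAM, a surface marker of epithelial cells, stood at 86.8, 89.4 and 519 CPM in GFP replicates 1, 2 and 3 and at 320.3, 331 and 252 CPM in the POU5F1B libraries, and the summed markers spanned 6367 to 9581 CPM in GFP and 7909 to 8931 CPM in POU5F1B cells. Of 9 markers of blood, stroma and vessels, COL3A1 was at 0 in all libraries and the sum was 27.1 to 177 CPM in GFP and 20.0 to 28.7 CPM in POU5F1B cells, mostly from COL1A1 in GFP replicates 1 and 2. The part of these marker differences in the values that follow was not tested.

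The start sites of 5 genes are shown first, because E2F sequences near the start site were shared by many members and were not used to choose them, and because MCM6 and its partners MCM2 and MCM7 in the same ring differed in direction in replicates 1 and 2. Each window runs 5′ to 3′ on the gene's own strand, from 250 bases before to 50 bases after the start site in RefSeq (GRCh38.p14). The windows are chr2:135876394-135876693 on the minus strand for MCM6, chr20:5126573-5126872 on the minus strand for PCNA, chr3:127598161-127598460 on the plus strand for MCM2, chr7:100101348-100101647 on the minus strand for MCM7 and chr20:33686336-33686635 on the minus strand for E2F1. Capitals mark a match to TTTCCCGC, TTTCGCGC, TTTGCCGC or TTTGGCGC, the forms of the E2F consensus, on either strand, so that a match on the other strand is printed as the reverse complement. Overlapping matches run together in the capitals.
MCM6: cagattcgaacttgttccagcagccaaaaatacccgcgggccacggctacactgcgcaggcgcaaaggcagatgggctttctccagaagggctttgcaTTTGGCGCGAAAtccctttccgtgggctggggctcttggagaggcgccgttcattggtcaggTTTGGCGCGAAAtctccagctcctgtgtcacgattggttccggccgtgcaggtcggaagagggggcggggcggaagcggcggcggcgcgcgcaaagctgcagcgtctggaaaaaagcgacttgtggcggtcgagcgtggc
PCNA: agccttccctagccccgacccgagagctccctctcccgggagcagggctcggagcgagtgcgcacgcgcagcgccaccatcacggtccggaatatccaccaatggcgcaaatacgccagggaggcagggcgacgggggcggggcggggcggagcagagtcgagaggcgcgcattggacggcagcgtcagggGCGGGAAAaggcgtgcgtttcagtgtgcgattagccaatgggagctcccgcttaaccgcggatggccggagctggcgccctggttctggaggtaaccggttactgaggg
MCM2: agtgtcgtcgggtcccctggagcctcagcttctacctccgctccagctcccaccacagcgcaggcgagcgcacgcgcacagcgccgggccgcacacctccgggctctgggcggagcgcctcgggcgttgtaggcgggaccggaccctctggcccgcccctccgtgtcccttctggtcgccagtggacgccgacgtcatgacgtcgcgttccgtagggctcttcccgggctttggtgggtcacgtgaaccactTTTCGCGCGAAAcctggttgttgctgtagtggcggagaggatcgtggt
MCM7: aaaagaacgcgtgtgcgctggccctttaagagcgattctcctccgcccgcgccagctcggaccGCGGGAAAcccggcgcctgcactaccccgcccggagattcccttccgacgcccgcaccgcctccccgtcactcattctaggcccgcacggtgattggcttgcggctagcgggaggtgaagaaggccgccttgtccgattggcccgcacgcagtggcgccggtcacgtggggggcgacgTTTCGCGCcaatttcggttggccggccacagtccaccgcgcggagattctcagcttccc
E2F1: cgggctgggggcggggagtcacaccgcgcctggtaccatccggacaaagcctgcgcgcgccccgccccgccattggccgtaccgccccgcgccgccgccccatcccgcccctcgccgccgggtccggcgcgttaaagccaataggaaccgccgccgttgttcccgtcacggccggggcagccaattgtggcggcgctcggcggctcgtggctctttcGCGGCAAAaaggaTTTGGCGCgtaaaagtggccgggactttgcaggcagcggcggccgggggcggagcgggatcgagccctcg
MCM6 held 4 matches in 2 blocks, which began 152, 148, 90 and 86 bases before the start site. In MCM2 the 2 overlapping matches lay 2 and 6 bases after it, in MCM7 the matches began 187 and 9 bases before it, in PCNA the match began 59 bases before it and in E2F1 the matches began 33 and 20 bases before it. Of the 42 members with a window in the table, 21 (50%) held such a match in at least 1 window, against 1090 of 27305 genes (3.99%) in the whole table. CCAAT, on either strand, was found in 25 of the 42 members (59.5%) and in 39.7% of all genes. A match is a description of the letters and does not show that a factor binds there.

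Taken over all 6 libraries, replication genes lay somewhat higher in POU5F1B than in GFP cells. The main test called no member once p-values were adjusted over all tested genes. With limma voom, that test, 0 of 49 members passed an adjusted p under 0.05 with a fold change above 2, the limits the study used. By the adjusted p alone 0 passed as well. Over all 14286 genes the share called was 0% by either rule, although log2 fold changes reached 10.7. The tested genes included the insert POU5F1B, at 0.0870 to 0.506 CPM in GFP and 121 to 1182 CPM in POU5F1B cells. The top of this range may thus be the insert itself. Of 200 genes simulated to differ 4-fold, the fit of all 6 libraries called 150 and that of replicates 1 and 2 called 193. A missing call with all libraries therefore does not show that a gene was unchanged. At the adjusted p alone, edgeR called 0 members and 0% of all tested genes, and DESeq2 called 3 members, all higher, and 2.88% of the tested genes, 1.3% higher and 1.58% lower. Without GFP replicate 3, voom called 5 members higher and 1 lower, where it called 5.07% of all tested genes higher and 7.02% lower. At an unadjusted p under 0.05 there were 11 members with each of the 3 tools, all higher, against 11.9% of all tested genes in voom, 6.07% higher and 5.82% lower. The log2 fold change was above 0 in 34 members and below 0 in 15, where 46.9% of all tested genes lay above 0. The median over the members was 0.16, against -0.02 over all tested genes, and the members ranged from -0.54 to 0.74. After correcting each library for GC content and transcript length the members' median was 0.07, against -0.03 over all tested genes, and with the replicate number as a block as well it was 0.06. In 16 members every POU5F1B library exceeded every GFP library, and in 1 (RFC4) every POU5F1B library lay below; over all tested genes these shares were 10.2% and 9.24%. The summed level of the 49 members was 7831, 7367 and 6738 CPM in GFP replicates 1, 2 and 3 and 8210.3, 8469 and 7827 CPM in the POU5F1B libraries. POU5F1B replicate 3 lay just below GFP replicate 1, so the sums overlapped, and GFP replicate 3 had the lowest sum of all.

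**Figure D1:**
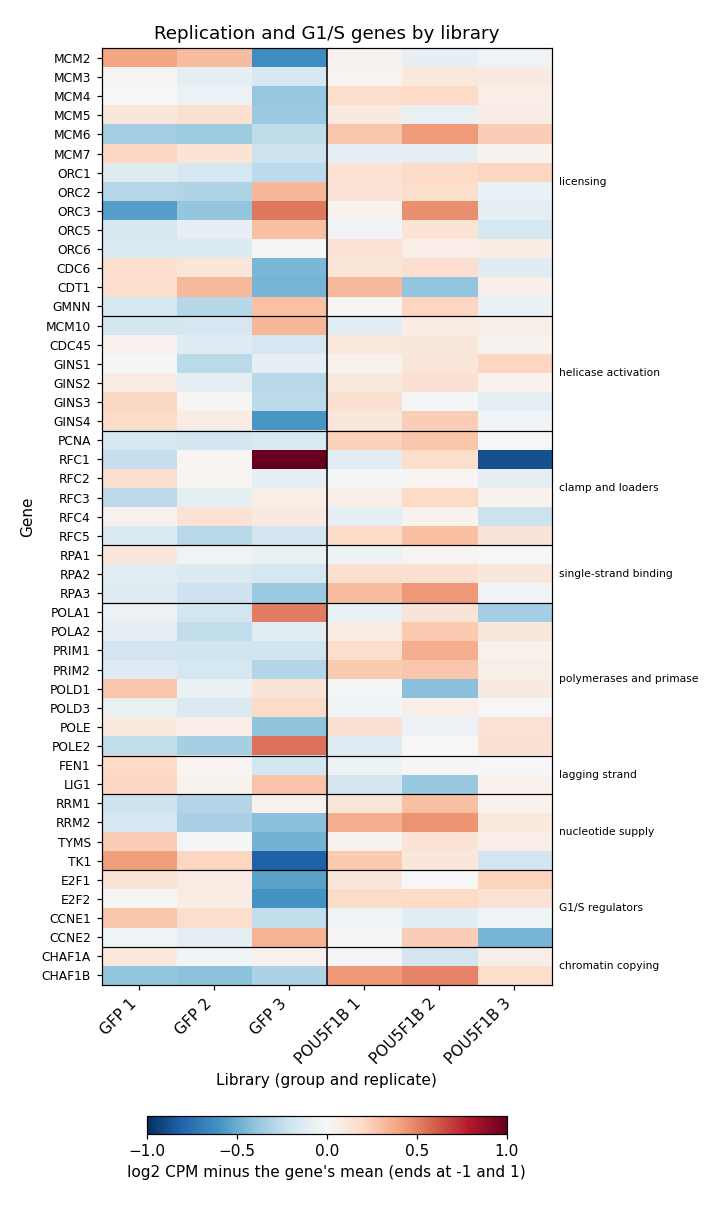
Colour shows log2 CPM minus the gene's mean over the 6 libraries (columns, by group and replicate) for the 49 members (rows, by role), and the scale ends at -1 and 1. MCM6, CHAF1B and RRM2 are low in all GFP and high in all POU5F1B libraries, whereas MCM2, TK1 and RFC1 differ most in GFP replicate 3, and RFC1 in POU5F1B replicate 3 as well.

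Licensing was led by MCM6 (ENSG00000076003; chr2:136597196-136634013, minus strand, GRCh37), a subunit of the MCM ring that unwinds DNA at the fork. It stood at 227, 225 and 242 CPM in GFP replicates 1, 2 and 3, and at 349.7, 388 and 341 CPM in POU5F1B replicates 1, 2 and 3. All POU5F1B libraries were thus above all GFP libraries, with 232 ± 9.37 CPM against 359 ± 24.7 CPM (SD, n = 3), 1.55-fold. Its log2 fold change was 0.63 ± 0.10 (SE; 95% interval 0.39 to 0.87), with an adjusted p of 0.185 in limma voom. In replicates 1 and 2 only, it was 0.69 and its adjusted p was 4.7e-05. DESeq2 gave an adjusted p of 1.86e-05 with all 6 libraries.

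The other subunits of the ring differed by less, or in the other direction. MCM2 had 408, 384 and 202 CPM in GFP replicates 1, 2 and 3 and 319, 292 and 303 CPM in the POU5F1B libraries. GFP replicate 3 had the least of all, and replicates 1 and 2 of GFP the most. With all libraries its log2 fold change was -0.06 ± 0.27 (SE; adjusted p = 0.955 by voom), and in replicates 1 and 2 only it was lower at -0.39 (adjusted p = 0.00276 by voom). MCM7 had 1236, 1177 and 924 CPM in GFP and 1012, 1009 and 1100.3 CPM in POU5F1B cells, again with GFP replicate 3 lowest. The difference was -0.09 ± 0.13 on the log2 scale (SE; adjusted p = 0.827 by voom) with all libraries and -0.27 (adjusted p = 0.00659 by voom) in replicates 1 and 2. GFP replicate 3 was also the lowest library for MCM4 and MCM5. MCM5 overlapped, at 133, 137 and 94.7 CPM in GFP and 131, 117 and 129 CPM in POU5F1B cells. MCM4 was above GFP in every POU5F1B library, at 545, 522 and 419 CPM against 614, 624 and 569 CPM (0.29 ± 0.13 on the log2 scale, SE; adjusted p = 0.429 by voom). MCM3 did not overlap either, at 303 to 344 CPM in GFP and 346 to 364 CPM in POU5F1B cells, a log2 fold change of 0.15 (adjusted p = 0.58 by voom).

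Because the 6 subunits enter the ring in equal numbers as protein, their RNA was also set as shares of the summed CPM of MCM2 to MCM7. CPM was not divided by transcript length here. A share can thus be compared between libraries but is not a share of RNA molecules. The sum was 2894, 2763 and 2184 CPM in GFP replicates 1, 2 and 3 and 2771, 2793 and 2803 CPM in the POU5F1B libraries, so the groups did not separate. MCM6 took 7.85%, 8.15% and 11.1% of this sum in GFP and 12.6%, 13.9% and 12.2% in POU5F1B cells, above every GFP library. MCM7 took 42.7%, 42.6% and 42.3% in GFP and 36.5%, 36.1% and 39.3% in POU5F1B cells, below every GFP library. A share within a sum shows unequal change among the subunits and not which of them changed, and the shares of MCM2 overlapped between the groups (9.23% to 14.1% and 10.47% to 11.5%).

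**Figure D2:**
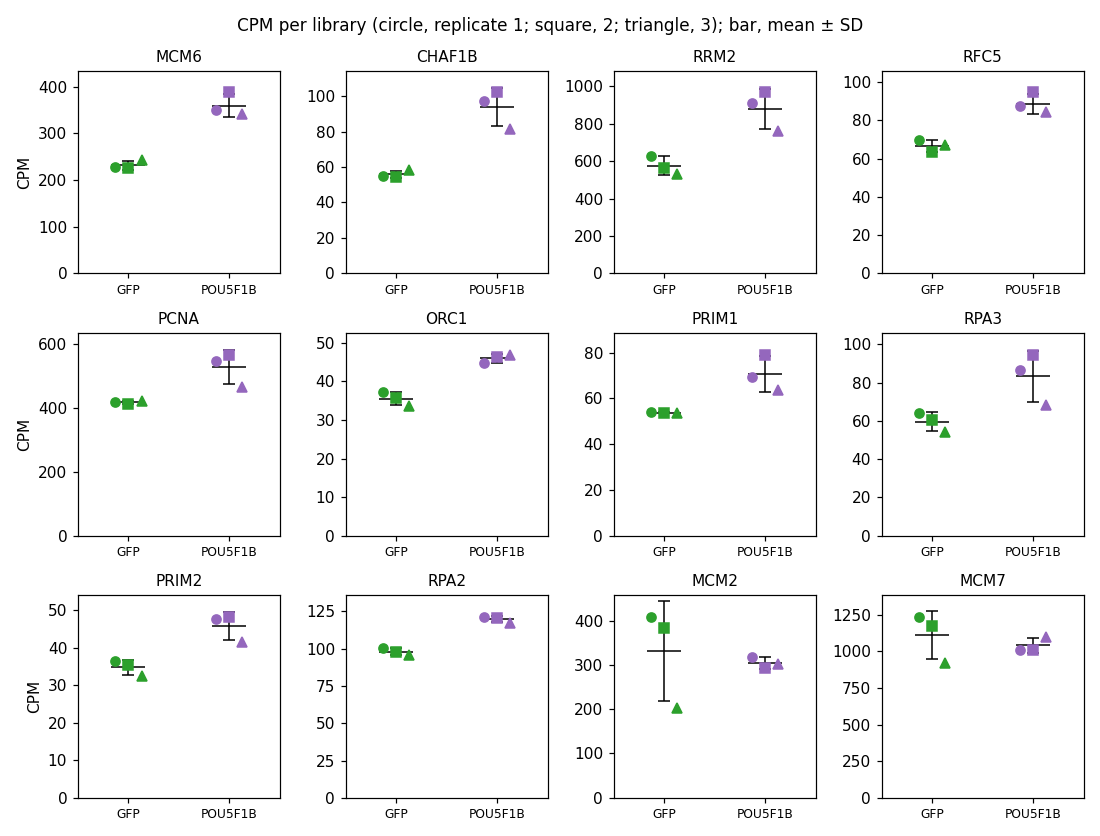
Each panel shows CPM (vertical axis, from 0) of a member in the 3 GFP and 3 POU5F1B libraries, with the marker shape giving the replicate number and the black bars the mean ± SD. The first 10 panels hold the members with the smallest p-values, whose groups do not overlap, and the last 2 hold MCM2 and MCM7, where GFP replicate 3 lies below replicates 1 and 2.

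Among the origin recognition subunits, ORC1 (ENSG00000085840; chr1:52838501-52870095, minus strand) had 37.2, 35.7 and 33.7 CPM in GFP replicates 1, 2 and 3 and 44.8, 46.3 and 47.0 CPM in the POU5F1B libraries. No library of either group crossed into the other, and the log2 fold change was 0.37 ± 0.12 (SE; 95% interval 0.09 to 0.66; adjusted p = 0.323 by voom). It was 0.31 in replicates 1 and 2 (adjusted p = 0.0564 by voom). ORC6 did not overlap either, at 32.6 to 35.5 CPM against 37.5 to 39.6 CPM. ORC2 and ORC3 rested on the choice of libraries. ORC3 had 29.3, 32.9 and 61.8 CPM in GFP and 43.96, 59.2 and 40.4 CPM in POU5F1B cells, so GFP replicate 3 was the highest of all. Its log2 fold change was 0.69 in replicates 1 and 2 (adjusted p = 0.00402 by voom), -0.61 between the replicate 3 libraries, and 0.27 ± 0.30 (SE; adjusted p = 0.753 by voom) overall. ORC2 showed the same order at 49.0, 48.5 and 75.2 CPM in GFP and 65.7, 67.6 and 57.1 CPM in POU5F1B cells, with 0.44 in replicates 1 and 2 (adjusted p = 0.00621 by voom) and 0.17 with all libraries (0.763). ORC5, CDC6, CDT1 and the licensing inhibitor GMNN overlapped between the groups. CDC6, which helps ORC load the ring, spanned 141 to 218 CPM in GFP and 178 to 217 CPM in POU5F1B cells, and its partner CDT1 spanned 21.8 to 37.6 CPM and 22.8 to 37.5 CPM. In all, 2 of the 14 licensing genes had an unadjusted p under 0.05, both higher, where 6.07% of all tested genes were higher and 5.82% lower. At the adjusted p there were 4 higher and 2 lower in replicates 1 and 2, against 14.1% higher and 15.5% lower over all tested genes, so the share that was lower was near that of all genes.

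The 6 helicase activators, MCM10, CDC45 and the 4 GINS subunits, had log2 fold changes above 0 with all libraries, with a median of 0.18 and a maximum of 0.25. The latter was GINS1, with 67.7, 56.6 and 64.3 CPM in GFP replicates 1, 2 and 3 and 70.0, 74.5 and 79.3 CPM in the POU5F1B libraries. The groups did not overlap, and the 95% interval of the log2 fold change reached from -0.05 to 0.55 (± 0.12 SE, adjusted p = 0.482 by voom). None of the 6 reached an unadjusted p under 0.05 by voom with all libraries, or an adjusted p under 0.05 by voom with replicates 1 and 2 (0 in both cases). Over all tested genes these shares were 11.9% and 29.7%. The counts of GINS4 are uncertain, since 21% of its exon length lies under a gene on the other strand and the strand setting of the counting was not stated.

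PCNA (ENSG00000132646; chr20:5095599-5107272, minus strand) encodes the sliding clamp that tethers polymerases to DNA. It had 421, 413 and 422 CPM in GFP replicates 1, 2 and 3, and 549, 568 and 468 CPM in POU5F1B replicates 1, 2 and 3. The GFP libraries lay close together and below every POU5F1B library, and POU5F1B replicate 3 was the nearest to them. The difference on the log2 scale was 0.33 ± 0.11 (SE; 95% interval 0.08 to 0.59; adjusted p = 0.323 by voom), and 0.41 in replicates 1 and 2 (adjusted p = 0.000795 by voom). Among the subunits of the loader that opens and places the clamp, RFC5 (ENSG00000111445; chr12:118451393-118470935, plus strand) had 69.7, 63.5 and 67.3 CPM in GFP and 87.4, 94.6 and 84.3 CPM in POU5F1B cells. The groups were apart, by 0.41 ± 0.11 on the log2 scale (SE; adjusted p = 0.27 by voom), and by 0.44 in replicates 1 and 2 (adjusted p = 0.00553 by voom).

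The other loader subunits went different ways. RFC4 was the only member whose POU5F1B libraries all lay below GFP, at 116, 127 and 107 CPM against 128, 137 and 132 CPM, a log2 fold change of -0.19 (adjusted p = 0.556 by voom). RFC3 was higher in replicates 1 and 2, by 0.29 on the log2 scale (adjusted p = 0.0355 by voom) and level in the replicate 3 libraries, at 117.0 and 115 CPM. RFC1, the large subunit, differed most between the replicate 3 libraries, with 46.1, 55.1 and 110.2 CPM in GFP replicates 1, 2 and 3 and 50.02, 61.4 and 29.6 CPM in the POU5F1B libraries. Replicates 1 and 2 of the groups overlapped, while the replicate 3 libraries held the highest and the lowest value of all. The log2 fold change of RFC1 was -0.54 with all libraries and 0.11 in replicates 1 and 2. RFC2 overlapped, at 129 to 154 CPM in GFP and 128 to 139 CPM in POU5F1B cells.

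RPA coats single-stranded DNA as a trimer, and its smaller subunits, unlike the large one, did not overlap between the groups. RPA2 (ENSG00000117748; chr1:28218035-28241257, minus strand) had 100.3, 98.1 and 95.8 CPM in GFP replicates 1, 2 and 3 and 121, 120.3 and 117 CPM in the POU5F1B libraries. RPA3 (ENSG00000106399; chr7:7676149-7758238, minus strand) had 63.9, 60.6 and 54.3 CPM in GFP and 86.6, 94.6 and 68.5 CPM in POU5F1B cells. Neither gene overlapped between the groups, and each had its lowest POU5F1B value in replicate 3. On the log2 scale RPA2 differed by 0.29 ± 0.10 (SE; adjusted p = 0.341 by voom), and RPA3 by 0.47 ± 0.16 (SE; adjusted p = 0.34 by voom). In replicates 1 and 2 they were 0.27 (adjusted p = 0.032 by voom) and 0.53 (0.00167). RPA1 lay between 222 and 252 CPM in GFP and between 225 and 237 CPM in POU5F1B cells.

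Of the 8 genes of the polymerases and primase, 3 that act when a strand is started were higher in POU5F1B cells without overlap. Over all tested genes 10.2% were higher in this way. PRIM1 (ENSG00000198056; chr12:57124222-57146158, minus strand), the catalytic subunit of primase, had 54.0, 53.7 and 53.8 CPM in GFP replicates 1, 2 and 3 and 69.5, 79.2 and 63.6 CPM in the POU5F1B libraries. PRIM2 (ENSG00000146143; chr6:57179603-57513376, plus strand), its large subunit, had 36.4, 35.3 and 32.5 CPM in GFP and 47.7, 48.2 and 41.5 CPM in POU5F1B cells. POLA2 (ENSG00000014138; chr11:65029384-65073430, plus strand), the accessory subunit of polymerase alpha, had 119, 106 and 117 CPM in GFP and 133, 151 and 137 CPM in POU5F1B cells. The GFP libraries of PRIM1 were nearly equal, and POU5F1B replicate 2 was the highest library of all 3 genes. The log2 fold changes were 0.39 ± 0.13 for PRIM1 (SE; adjusted p = 0.33 by voom), 0.40 ± 0.13 for PRIM2 (adjusted p = 0.34 by voom) and 0.30 ± 0.11 for POLA2 (adjusted p = 0.361 by voom). In replicates 1 and 2 the adjusted p-values from voom were 0.00678, 0.0157 and 0.0254. The catalytic subunit of polymerase alpha, POLA1, overlapped, with 170.2 CPM in GFP replicate 3 as its highest and 94.4 CPM in POU5F1B replicate 3 as its lowest value, and its log2 fold change was -0.18 with all libraries and 0.14 in replicates 1 and 2. POLD1, POLD3, POLE and POLE2, of the polymerases that extend the strands, overlapped between the groups as well. At an adjusted p under 0.05 in limma voom with replicates 1 and 2, 0 of these 4 were called, against 29.7% of all tested genes.

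LIG1 (ENSG00000105486; chr19:48618702-48673860, minus strand), the ligase that joins lagging-strand fragments, was the member with the smallest p-value among those lower in POU5F1B cells. It had 106, 93.7 and 111 CPM in GFP replicates 1, 2 and 3 and 80.5, 70.4 and 94.4 CPM in the POU5F1B libraries. POU5F1B replicate 3 just passed the lowest GFP library, so the groups overlapped. Its log2 fold change was -0.34 ± 0.15 (SE; 95% interval -0.69 to 0.0027; adjusted p = 0.424 by voom), and in replicates 1 and 2 it was -0.41 (adjusted p = 0.0116 by voom). FEN1, the nuclease that trims the same fragments, spanned 195 to 252 CPM in GFP and 213 to 223 CPM in POU5F1B cells.

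In nucleotide supply, RRM2 (ENSG00000171848; chr2:10260825-10351851, plus strand), the small subunit of ribonucleotide reductase, had 629, 565 and 531 CPM in GFP replicates 1, 2 and 3 and 912, 967 and 760.1 CPM in POU5F1B replicates 1, 2 and 3. All POU5F1B libraries exceeded all GFP libraries, with means of 575 ± 50.03 CPM and 879.7 ± 107 CPM (SD, n = 3), 1.53-fold. RRM2 had a log2 fold change of 0.61 ± 0.13 (SE; 95% interval 0.31 to 0.91; adjusted p = 0.207 by voom), 0.64 in replicates 1 and 2 (adjusted p = 4.54e-05 by voom), and DESeq2 gave an adjusted p of 0.0167 with all libraries. RRM1, the large subunit, had 279, 263 and 331 CPM in GFP and 350.4, 398 and 329 CPM in POU5F1B cells. Here the replicate 3 libraries were level and only replicates 1 and 2 stood apart. RRM1 differed on the log2 scale by 0.31 ± 0.13 (SE; adjusted p = 0.425 by voom) with all libraries and 0.45 (adjusted p = 0.0015 by voom) in replicates 1 and 2. Thymidylate synthase TYMS and thymidine kinase TK1, which make thymidine nucleotides by separate routes, overlapped between the groups. TK1 had 199, 173 and 85.3 CPM in GFP and 178, 161 and 131 CPM in POU5F1B cells, and TYMS had 378, 316 and 231 CPM and 326, 352 and 334 CPM. In both genes GFP replicate 3 was the lowest and GFP replicate 1 the highest of all. TYMS shares 39.9% of its exon length with ENOSF1 on the other strand, so its counts are uncertain.

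The G1/S regulators themselves showed no such separation, apart from E2F2. E2F1, which activates replication genes, had 117, 113 and 73.9 CPM in GFP replicates 1, 2 and 3 and 116, 107 and 125 CPM in the POU5F1B libraries. Its difference of 0.22 on the log2 scale (adjusted p = 0.688 by voom) rested on GFP replicate 3, and was -0.06 in replicates 1 and 2 (adjusted p = 0.647 by voom). E2F2, a close relative, had 24.2, 25.2 and 15.8 CPM in GFP and 27.2, 27.5 and 26.5 CPM in POU5F1B cells, and did not overlap. Its log2 fold change was 0.34 ± 0.21 (SE; adjusted p = 0.565 by voom), and 0.13 in replicates 1 and 2 (adjusted p = 0.473 by voom). The E cyclins, which drive the entry into S phase with CDK2, overlapped in both genes. CCNE1 had 25.1, 23.4 and 17.5 CPM in GFP and 20.1, 19.2 and 20.2 CPM in POU5F1B cells, a log2 fold change of -0.14 (adjusted p = 0.808 by voom). CCNE2 had 21.2, 20.5 and 27.8 CPM and 22.02, 26.0 and 15.8 CPM, with a log2 fold change of -0.14 (adjusted p = 0.849 by voom) that turned to 0.18 (0.387) in replicates 1 and 2. The counts of CCNE2 are uncertain, as 37% of its exon length is shared with INTS8 on the other strand.

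CHAF1B (ENSG00000159259; chr21:37757690-37791313, plus strand), a subunit of the assembly factor that places histones on new DNA, had the largest log2 fold change of the 49 members. It stood at 55.1, 54.4 and 58.0 CPM in GFP replicates 1, 2 and 3 and at 97.3, 102 and 81.7 CPM in POU5F1B replicates 1, 2 and 3. The groups were far apart, with means of 55.8 ± 1.93 CPM and 93.7 ± 10.7 CPM (SD, n = 3), 1.68-fold. CHAF1B had a log2 fold change of 0.74 ± 0.13 (SE; 95% interval 0.43 to 1.05), with an adjusted p of 0.185 in limma voom, 0.000287 in DESeq2, and 4.25e-05 in limma voom with replicates 1 and 2. CHAF1A, its partner in the same complex, overlapped, at 75.3 to 82.6 CPM in GFP and 67.8 to 80.3 CPM in POU5F1B cells.

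Some members lie on chromosomes whose tested genes were shifted as a whole. On chromosome 21, which holds CHAF1B, the median log2 fold change was 0.33 with all libraries, and on chromosome 2, which holds MCM6, RRM2 and ORC2, it was 0.14. Less this median, the log2 fold change was 0.41 for CHAF1B, 0.49 for MCM6, 0.47 for RRM2 and 0.03 for ORC2. In replicates 1 and 2 the chromosome medians were 0.47 and 0.28, and the values less the median were 0.38, 0.41, 0.36 and 0.16. Chromosomes 19 and 7 were shifted the other way, with medians of -0.16 and -0.15. Less these, LIG1 on chromosome 19 went from -0.34 to -0.18, and on chromosome 7 MCM7 went from -0.09 to 0.07 and RPA3 from 0.47 to 0.62, the largest such value among the 49 members. Among replicates 1 and 2 these medians were -0.20 and -0.16, and the values less the median were -0.21 for LIG1, -0.10 for MCM7 and 0.69 for RPA3. Each median was taken over the whole chromosome, and shifts along parts of a chromosome were not analysed. RPA3 and MCM7 lie far apart on chromosome 7, as do RRM2 and MCM6 on chromosome 2. A shared median may therefore not suit both genes of such a pair. The part of these chromosome shifts in the members' values was not tested beyond this subtraction.

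Levels between members can be compared per length of transcript. Averaged over the 6 libraries, CPM per kilobase of the canonical transcript was highest for MCM7 at 436, followed by PCNA at 371, RRM2 at 223, TYMS at 200.2 and MCM4 at 135. The ranges over the libraries were 374 to 501 for MCM7 and 323 to 445 for PCNA, which overlap, and 163 to 297 for RRM2, below that of PCNA. The lowest were E2F2 at 4.70, CCNE2 at 8.31, CCNE1 at 10.7 and GINS4 at 10.8 CPM per kilobase.

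To describe the members as a group within and between replicates, replicates 1 and 2 were fitted alone, with 2 libraries against 2. By limma voom 0 members passed both limits, since none differed by more than 2-fold, against 8.36% of all tested genes. At an adjusted p under 0.05 there were 18 members (36.7%), 15 higher and 3 lower, where 29.7% of all tested genes were called, 14.1% higher and 15.5% lower. The members called in total were therefore near the background, while their split was towards higher values (30.6% of the members higher, 6.12% lower). The 15 were MCM6, MCM4, ORC2, ORC3, PCNA, RFC3, RFC5, RPA2, RPA3, POLA2, PRIM1, PRIM2, RRM1, RRM2 and CHAF1B, and the 3 were MCM2, MCM7 and LIG1. When voom weighted the libraries by their quality, GFP replicate 3 received a weight of 0.111 against 0.575 to 2.79 for the others. By this weighted voom 15 members were higher and 3 lower, with ORC1 (adjusted p = 0.0211) in place of RFC3 (adjusted p = 0.0557). Of all tested genes 27.8% were called, 13.8% higher and 14% lower. So low a weight comes near to leaving GFP replicate 3 out, so this fit is no independent check of the fit of replicates 1 and 2.

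The replicate 3 libraries, 1 against 1, allow no test but show how far these differences recurred. Replicate numbers were not taken to pair the libraries, so a comparison within a number follows the titles only. POU5F1B exceeded GFP in 31, 34 and 33 of 49 members within replicate numbers 1, 2 and 3, where the shares of all tested genes were 51.5%, 50.8% and 50.5%. The median log2 difference over the members was 0.06, 0.22 and 0.22. In 18 members POU5F1B was higher at all 3 numbers and in 4 it was lower at all 3. Another 11 were higher in replicates 1 and 2 but lower in replicate 3, and 9 the reverse. The shares of all tested genes with these patterns were not counted, so these counts have no background beside them. Of the 15 members called higher in replicates 1 and 2, 11 (73.3%) were higher in replicate 3 as well, with a median of 0.29 over the 15. Of the 2021 genes so called over the whole table, 1001 (49.5%) were, with a median of -0.01. Among all 49 members, called or not, 33 (67.3%) were higher in replicate 3, so the 73.3% lay near the share of the whole list. The exceptions among the 15 were ORC2, ORC3, RFC3 and RRM1. POU5F1B replicate 3 had the value nearest to GFP among the POU5F1B libraries in 14 of the 15 members (93.3%), and in 67.5% of the 2021 genes. These genes were chosen by replicates 1 and 2, and a library left out of the choice tends to lie nearer to GFP. A link to the level of POU5F1B was not tested. Of the 3 members called lower, only LIG1 was lower in replicate 3.

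**Figure D3:**
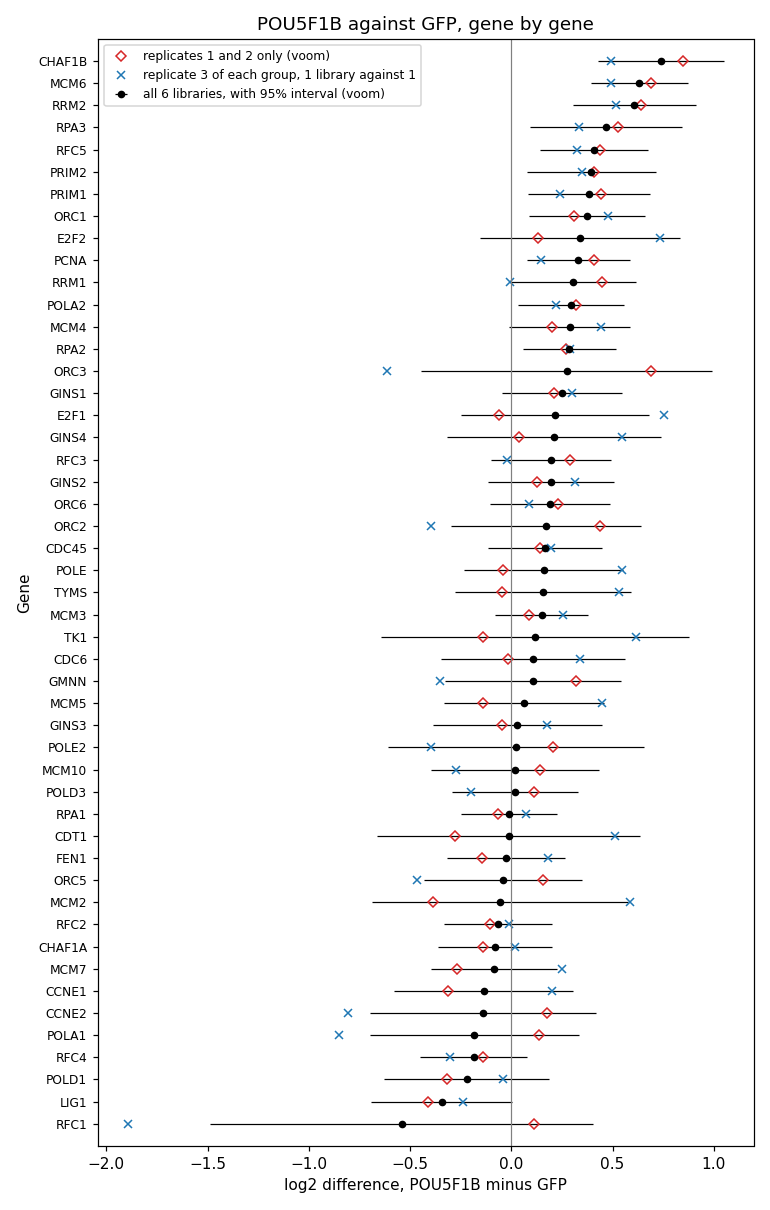
Each line is a member, ordered by its log2 difference between POU5F1B and GFP (horizontal axis) with all 6 libraries (black points, with 95% intervals from limma voom); red diamonds give replicates 1 and 2 only and blue crosses the 1 replicate 3 library of each group. From CHAF1B to RPA2 the 3 estimates mostly lie on the same side of 0, whereas in ORC3, MCM2, CCNE2, POLA1 and RFC1 the crosses lie far from the diamonds.

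Within a group, the replicate 3 library also differed from its replicates for these genes. The median log2 difference of replicate 3 from the mean of replicates 1 and 2 was -0.05 over the members in GFP, with 22 above and 27 below 0, and -0.09 in POU5F1B cells, with 16 above and 33 below. Over all tested genes the medians were 0.04 and 0.01, with 52.1% and 50.8% above 0. Single members moved further and both ways in GFP, with -1.12 for TK1, -0.97 for MCM2, 0.99 for ORC3 and 1.13 for RFC1. These shifts stand beside the low POU5F1B level of POU5F1B replicate 3 and the mitochondrial share of GFP replicate 3, which at 8.62% was the highest, against 6.95% to 7.49% in the others, and their part in the differences was not tested.

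The members with and without an E2F match at a start site were set side by side, without a test. The 21 with a match had a median of 0.16 on the log2 scale, with 16 above 0 and 6 whose POU5F1B libraries all exceeded GFP. The 21 without one had a median of 0.12, with 12 above 0 and 7 whose POU5F1B libraries all exceeded GFP. Over all tested genes 10.2% were higher in this way. In replicates 1 and 2 the medians were 0.13 and 0.14. MCM6, with 4 matches, and MCM2 and MCM7, with 2 each, lay on different sides of 0, and RRM2 and CHAF1B held no match in their windows. Windows of MCM4, MCM5, GINS4, RPA2, RPA3, POLD3 and CCNE2 were not analysed here.

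Other genes of the cell cycle were described in 5 further lists. Of 28 G1/S control genes outside the members, 4 were higher and 3 lower at an unadjusted p under 0.05 in limma voom with all libraries, with a median log2 fold change of 0.03. Over all tested genes the shares at that limit were 6.07% higher and 5.82% lower, which the counts of all 5 lists are to be read against. CDKN2B, an inhibitor of CDK4 and CDK6, had 37.2, 38.4 and 18.4 CPM in GFP replicates 1, 2 and 3 and 7.31, 5.19 and 11.9 CPM in the POU5F1B libraries. The groups did not overlap, and its log2 fold change was -1.95 ± 0.42 (SE; adjusted p = 0.209 by voom), and -2.61 in replicates 1 and 2 (adjusted p = 1.46e-06 by voom). E2F6, a repressor of the E2F family, had a difference of 0.52 ± 0.15 on the log2 scale (SE; adjusted p = 0.279 by voom), with 32.2 to 41.2 CPM in GFP and 50.7 to 56.2 CPM in POU5F1B cells. Chosen after their values were seen, CDKN2A, a neighbour of CDKN2B with a related product, had a log2 fold change of -0.69 (adjusted p = 0.285 by voom) and the cyclin gene CCND1 one of 0.88 (adjusted p = 0.321 by voom), and in replicates 1 and 2 these were -0.90 (adjusted p = 0.000609 by voom) and 0.73 (3.38e-06). CCND1 had 1310, 1318 and 688 CPM in GFP and 2269, 2141 and 1526 CPM in POU5F1B cells, without overlap.

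The fork and checkpoint list (27 genes) had 3 higher and 0 lower at an unadjusted p under 0.05 in limma voom, with a median of -0.02, and POLE4, a small subunit of polymerase epsilon, was at 0.51 ± 0.14 (SE; adjusted p = 0.261 by voom). Of 18 further genes of nucleotide supply, 2 were higher and 1 lower, with a median of 0.14; the lower gene was RRM2B, the p53-inducible alternative to RRM2 (-0.68 ± 0.23 SE; adjusted p = 0.335 by voom), and CTPS1, which makes CTP, was at 0.37 ± 0.13 (SE; adjusted p = 0.353 by voom). Of 7 chromatin assembly genes, 1 was higher and 0 lower, namely SLBP, which binds histone mRNA (0.30 ± 0.11 SE; adjusted p = 0.353 by voom), while the histone chaperone NASP was at -0.16 ± 0.10 (SE; adjusted p = 0.572 by voom). Of 30 genes of mitosis and G2/M, 5 were higher and 0 lower, with a median of 0.07, led by CDC20, an activator of the anaphase-promoting complex (0.33 ± 0.09 SE; adjusted p = 0.285 by voom), and the spindle factor TPX2 (0.30 ± 0.11 SE; adjusted p = 0.353 by voom). In replicates 1 and 2 the mitosis list had 12 genes higher and 0 lower at the adjusted p, against 14.1% and 15.5% of all tested genes, and POU5F1B exceeded GFP in 22, 29 and 12 of its 30 genes within replicate numbers 1, 2 and 3. The members stood at 31, 34 and 33 of 49, and the fork and checkpoint list at 16, 19 and 8 of 27. Whether the lists differ from each other was not tested, and the replicate numbers were not taken to pair the libraries.

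**Figure D4:**
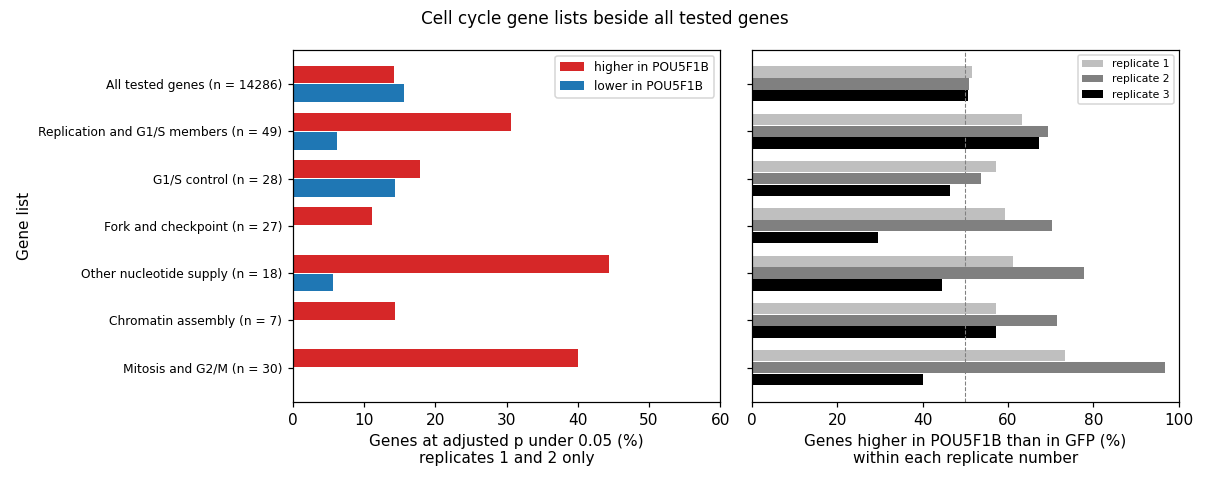
The left panel shows the percentage of genes of each list that were higher (red) or lower (blue) in POU5F1B cells at an adjusted p under 0.05 in limma voom with replicates 1 and 2 only, and the right panel the percentage higher in POU5F1B than in GFP within each replicate number (grey to black), with a dashed line at 50%. In replicate 3 the members stand at 67.3%, while mitosis and G2/M genes stand at 40%, against 73.3% and 96.7% in replicates 1 and 2. Fork and checkpoint genes stand at 29.6% in replicate 3. The numbers were not taken to pair the libraries.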

How the data were processed

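RNA-seq counts were analysed from 3 GFP and 3 POU5F1B libraries of SW480 cells, grouped and numbered by their titles. The authors deposited 1 table of whole-number counts per library without normalization. They mapped reads from a stranded mRNA kit to hg19 with HISAT2 and counted genes with featureCounts, and the strand setting was not stated, which leaves antisense neighbours unresolved. Depth was 10767947 to 12787637 counts per library.

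Symbols were matched to Ensembl identifiers through the gene name table (87.4% of identifiers had a symbol), and gene coordinates are GRCh37. The members and lists were chosen with earlier results of these data known, and so was the fit of replicates 1 and 2 only. Genes kept by filterByExpr of edgeR 4.0.16 were scaled by TMM and tested two-sided with voom in limma 3.58.1 (R 4.3.3), with Benjamini-Hochberg adjustment over 14286 genes and limits of 0.05 and 2-fold. CPM used TMM-scaled sizes, and log2 differences between single libraries a prior count of 2.

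Values per library were given for the 10 members with the smallest p-values, for the members with the highest and lowest level per kilobase, and for other members described with their role; genes outside the list were the 2 with the smallest p-values in each further list, except for 1 that is not reported here. Alternatives were edgeR's quasi-likelihood test, DESeq2 1.42.0, quality weights, 3 other scalings, 2 other filters, a replicate block, leaving out each library, and splines per library on GC and length (known for 97.8% of tested genes). Deviations of libraries with the same replicate number correlated with r = 0.242, 0.0883 and 0.165 across genes, so the numbers were not taken to pair the libraries. Promoter windows came from RefSeq. The fits were tested on simulated data.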

Additional observations from a re-analysis of the deposited data

How the results depend on the processing

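The count of members past both limits was 0 under every alternative run. The count at an adjusted p under 0.05, 0 with voom and all 6 libraries, was 3 with DESeq2 (2.88% of all tested genes), 18 with sample quality weights (27.8%) and 18 with replicates 1 and 2 only (29.7%), and it ranged from 0 to 6 when each library was left out (6 without GFP replicate 3: 5 higher, 1 lower, against 5.07% and 7.02% of all tested genes). It stayed at 0 with edgeR, the other scalings, the other filters and the GC and length correction. With the replicate block it was 0 as well, and the members' median log2 fold change was 0.15, against 0.16 without the block. The block changed no call at the adjusted p. That median was 0.07 with the GC and length correction and 0.0617 with this correction and the replicate block, 0.14 in replicates 1 and 2, up to 0.21 under another scaling, and 0.10 to 0.18 when each library was left out. Some signs turned. RFC1, at -0.54, was 0.11 in replicates 1 and 2. POLA1, at -0.18, was 0.0714 with quality weights and 0.14 in replicates 1 and 2. CCNE2, at -0.14, was 0.0748 with quality weights, 0.18 in replicates 1 and 2, 0.0198 with the GC and length correction and 0.0225 with that and the block. MCM5, at 0.06, was -0.0854, -0.14, -0.0223 and -0.022 in the same order, and E2F1, at 0.22, was -0.0611 in replicates 1 and 2. When each library was left out, POLA1 ranged from -0.30 to 0.016, CCNE2 ranged from -0.29 to 0.0638, MCM5 from -0.12 to 0.18, E2F1 from -0.0045 to 0.33 and MCM2 from -0.39 to 0.12. Of the 49 members, at most 11 changed sign in a setting, and these 11 did so in replicates 1 and 2. The cause of these changes was not tested. The lowest count of a member in a library was 182 (E2F2).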
